A study of Homo sapiens with 4 samples.

Results

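Mitotic kinase, checkpoint and kinetochore genes were examined in HuCCT1, an established human cholangiocarcinoma (bile duct cancer) cell line. The set was defined by gene name, and the names were chosen with earlier results of these data known. It held 53 genes, from the cyclins and kinases that start mitosis to the proteins that hold chromosomes on the spindle and cut the cell apart. A gene was measured when the platform annotation gave at least 1 array row its symbol and no other. That left 52 of the 53 genes, out of 18377 measured genes in all. CENPA, the centromeric histone H3 variant, has only a row that it shares with another gene, so its expression was not analysed here and it enters only the promoter counts.

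The 4 arrays were Affymetrix Human Gene 1.0 ST arrays, with 1 array for each condition. The conditions were VPA, GEM, GEM_VPA (both agents) and untreated. VPA and GEM are the abbreviations of the labels and are read here as valproic acid, a histone deacetylase inhibitor, and gemcitabine, a nucleoside analogue. The labels give no dose, exposure time or culture batch, and all 4 samples are of the same cell line. No condition was replicated, so single differences carry no error and no p-value. Values are log2 levels, and a difference is a log2 ratio between 2 arrays. A gene was called lower or higher when the ratio was at least 2-fold (1 on the log2 scale, the limits of 2 and 0.5 stated in the series text) and the higher value reached the median of its array.

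Cells enter mitosis when cyclin B binds the kinase CDK1 and CDC25 phosphatases switch the pair on. Polo-like and Aurora kinases then build the spindle, kinetochores tie each chromosome to its microtubules, and the spindle assembly checkpoint holds back the anaphase-promoting complex (APC/C) until all are attached. Transcripts of many, though not all, of these genes are made mainly in G2 and mitosis, under FOXM1, MYBL2 and the MuvB complex. This runs through promoter elements called CHR (cell cycle homology region) and CCAAT boxes. Such transcripts are low in resting cells, and the DREAM complex represses their genes when cells leave the cycle. In a bulk sample, fewer cells in G2 and mitosis and less RNA per cell cannot be told apart.

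The promoters were looked at first, because many of the members share a transcription programme. The RefSeq table (GRCh38.p14) held 43 of the 53 genes, each entry running from 250 bases before the start to 50 after it, and the first listed start was used for the 8 members with more than 1. The CHR letters searched were TTTGAA and TTCGAA, the CCAAT letters CCAAT, and the E2F-like letters TTGGCGC and TTCCCGC, on either strand. Each kind was searched alone, so matches of different kinds may overlap. CHR letters were present in 30 of the 43 entries (69.8%), against 13.3% of 14209 genes on the array and 16.6% of all 27303 entries. CCAAT was present in 31 (72.1%), against 36.3% of the genes on the array and 35.7% of all entries. More than 1 CCAAT was found in 51.2% of the member entries, in 12.5% of the genes on the array and in 11.3% of all entries. E2F-like letters were in 10 of the 43 entries (23.3%), against 12.6% of the genes on the array and 9.33% of all entries. A match is a description of the letters and not a measured binding site.

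**Figure D1:**
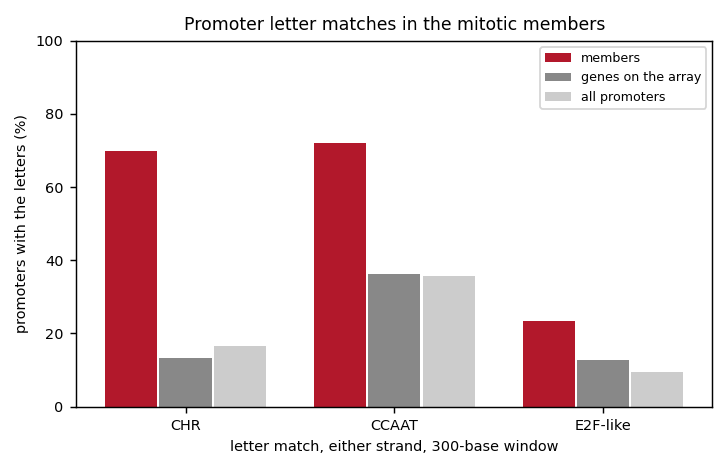
Share of promoter entries (vertical axis, %, 300-base windows of RefSeq GRCh38.p14) that hold each set of letters on either strand, for the mitotic members (43), genes on the array (14209) and all entries (27303). The CHR bar stands at 69.8% in the members and at 13.3% and 16.6% in the other sets, and the CCAAT bar at 72.1%, 36.3% and 35.7%.

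Within the 250 bases before the start, CHR letters were in 20 of the 43 members (46.5%), against 11.8% of the genes on the array and 14.6% of all entries. Both CHR and CCAAT letters were held by 18 of the 43 members (41.9%), against 5.24% of all entries. The 4 stretches below show both kinds in place. They were taken from the members with both kinds whose mean ratio over the VPA and GEM arrays was lowest (CCNB2 and SPC25) and highest (INCENP and CKS2). Each runs 5′ to 3′ towards the start of its gene, which follows the last base, and capitals mark the CHR and CCAAT letters on either strand. INCENP and CKS2 are printed only from just before their farthest match.
CCNB2 promoter, chr15:59104896-59105145, plus strand: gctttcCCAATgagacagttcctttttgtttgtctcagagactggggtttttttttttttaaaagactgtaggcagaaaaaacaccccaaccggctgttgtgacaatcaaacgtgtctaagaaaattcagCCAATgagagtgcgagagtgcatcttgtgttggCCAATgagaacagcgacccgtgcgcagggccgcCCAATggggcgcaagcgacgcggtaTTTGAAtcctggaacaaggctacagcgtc
SPC25 promoter, chr2:168890431-168890680, minus strand: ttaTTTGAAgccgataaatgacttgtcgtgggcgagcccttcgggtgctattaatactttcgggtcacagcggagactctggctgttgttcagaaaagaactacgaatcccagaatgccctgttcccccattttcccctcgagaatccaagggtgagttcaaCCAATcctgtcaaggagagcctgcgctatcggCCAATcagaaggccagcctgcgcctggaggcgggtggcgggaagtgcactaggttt
INCENP promoter, chr11:62123891-62124010, plus strand: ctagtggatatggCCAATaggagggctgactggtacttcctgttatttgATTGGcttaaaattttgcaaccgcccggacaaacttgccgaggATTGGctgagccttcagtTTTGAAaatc
CKS2 promoter, chr9:89311037-89311194, plus strand: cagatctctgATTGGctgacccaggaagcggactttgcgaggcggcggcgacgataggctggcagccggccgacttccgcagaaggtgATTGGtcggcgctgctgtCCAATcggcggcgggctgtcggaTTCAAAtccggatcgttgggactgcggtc

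CCNB2, INCENP and CKS2 carry their CHR letters close to the start, 29, 10 and 29 bases before it. The CHR letters of SPC25 in the printed stretch lie 247 bases before. Its whole entry holds 2 CHR matches, and the other is not within the printed stretch, which ends at the start. Members with CHR letters anywhere in the entry (29 measured genes) had a median of -0.88 for the mean log2 ratio of the VPA and GEM arrays over untreated, and those without (13 genes) -0.84. With CCAAT (30 genes) the median was -0.88, and without (12 genes) -0.92. With E2F-like letters (9 genes) it was -0.80, and without (33 genes) -0.93. The differences between these medians were not tested.

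Over all rows the arrays fell into close pairs. The VPA and GEM arrays correlated at 0.996 over all 28869 rows, as did the GEM_VPA and untreated arrays, and the 4 other pairs at 0.984 to 0.987. Over all genes the log2 differences had a robust SD of 0.158 for GEM over VPA and 0.147 for GEM_VPA over untreated, against 0.261 for GEM over untreated and 0.264 for VPA over untreated. This pairing goes across the labels, since the array with both drugs lies beside the one with none, and all directions below follow the labels as given. Whether labels were exchanged cannot be told from 1 array per condition, and an exchange would alter the signed values that follow. Of 9 epithelial markers, all lay above the array median on the VPA, GEM and untreated arrays and 8 on the GEM_VPA array, where MUC1 was at 7.85. KRT8 (13.71 to 14.13) and KRT19 (12.94 to 13.68) were high throughout. KRT7, a keratin of bile duct cells, was at 11.50 with VPA, 11.14 with GEM and 8.93 with both drugs, against 9.53 in untreated cells, and was called higher with VPA (1.97) and with GEM (1.61). Of 9 leukocyte markers, 2 or 3 lay above the array median, and the defining marker PTPRC lay at 5.21 to 5.34, with 8.23% to 9.43% of rows below it. CD68, which is not limited to leukocytes, was at 10.99 with VPA, 10.98 with GEM and 9.70 with both drugs, against 10.05 in untreated cells. Of 7 fibroblast and 6 endothelial markers, 1 each lay above it on every array. The log2 of the summed level of the leukocyte markers was 11.68 with VPA, 11.73 with GEM and 10.86 with both drugs, against 11.10 in untreated cells. The same sum for the 9 epithelial markers was 15.97 with VPA, 15.99 with GEM and 15.52 with both, against 15.55 in untreated cells. Both sums were thus high where the mitotic genes were low, and their part in the results was not tested. A sum is set mostly by its highest genes, and CD68 was the highest leukocyte marker on every array. Above untreated were 9 of 9 leukocyte markers with VPA and 8 with GEM, but the median ratios were 0.13 and 0.03. PTPRC was at 0.07 and -0.04. Of the 9 epithelial markers 8 were above untreated with each drug, and EPCAM was below (-0.15 and -0.19).

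All 52 measured members were lower on the VPA array and on the GEM array than on the GEM_VPA array and on the untreated array. Centring on the ribosomal protein genes left 50 of the 52 so arranged, since CENPI and CENPE then stood at 0.13 and 0.04 over untreated with VPA. The same arrangement as deposited held for 30.6% of all genes and for 39.1% of genes that reached the array median on at least 1 array. GEM was the lowest array for 48 of the 52, and VPA for the other 4 (CKS2, CDC25B, BIRC5 and CENPN). Untreated was the highest array for 32 members and GEM_VPA for 20. Over all genes, GEM lay below VPA in 47.9% and GEM_VPA below untreated in 57.5%. As deposited, in 10 members the gap between the higher single-drug array and the lower of the other arrays was itself at least 2-fold, against 0.855% of genes at level.

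**Figure D2:**
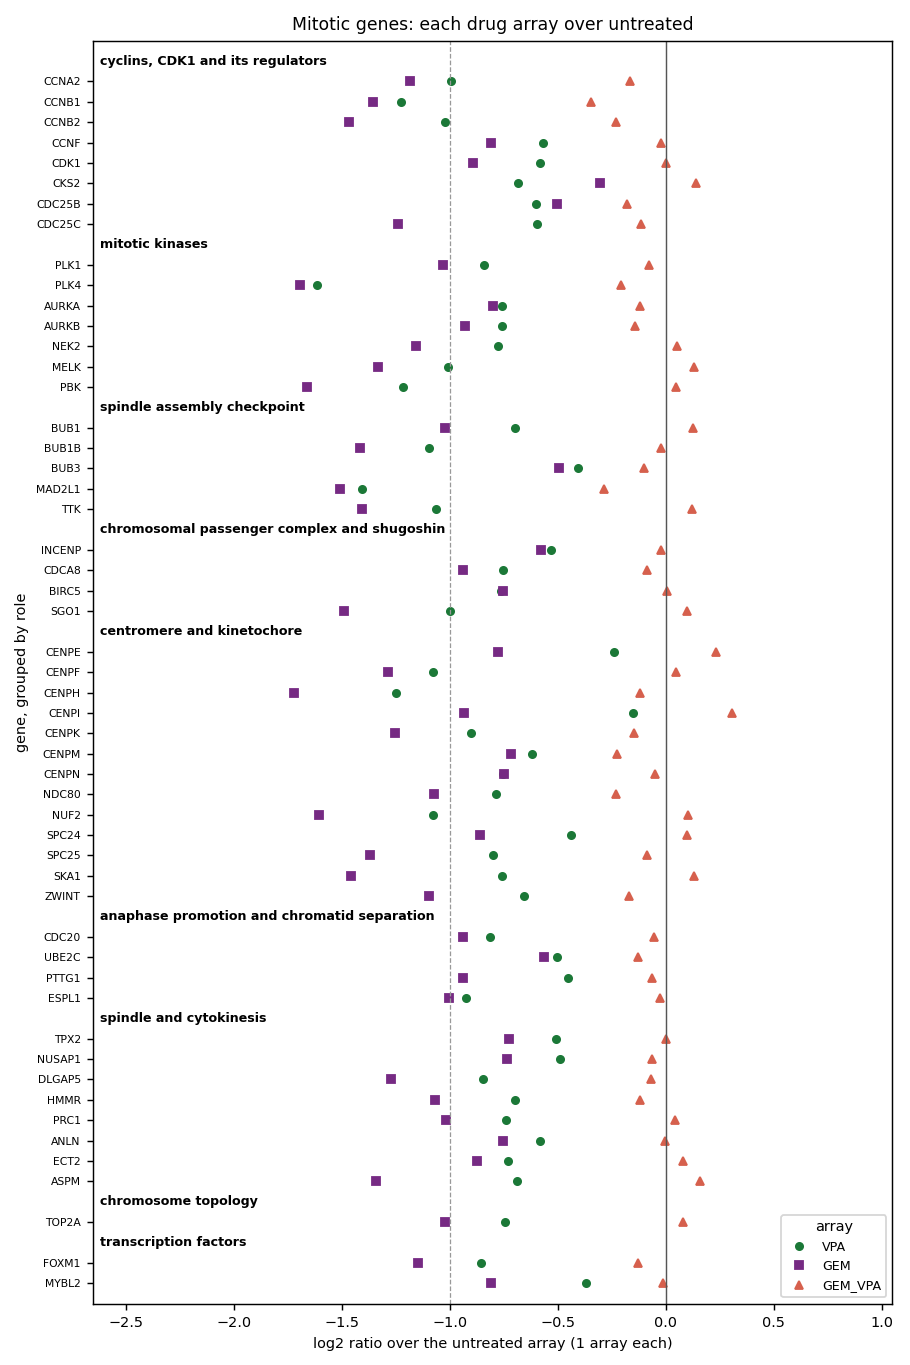
Log2 ratio of each array over the untreated array (horizontal axis, 1 array each) for the 52 measured members, grouped by role. Circles are VPA, squares GEM and triangles GEM_VPA, and the dashed line is a 2-fold decrease. The triangles lie between -0.35 and 0.31, and every circle and square lies left of the triangle of its gene.

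With VPA alone, 12 of 52 members were called lower and 0 higher, against 2.09% of 11611 genes at level called lower and 1.9% called higher. With GEM alone, 29 of 52 were called lower and 0 higher, against 3.01% of 11593 genes called lower and 1.48% called higher. All 52 members were below 0 in both comparisons as deposited (with ribosomal centring CENPI and CENPE were not with VPA), as were 51.9% of all genes with VPA and 51.4% with GEM. The median log2 ratio of the members was -0.75 for VPA and -1.02 for GEM, and that of all genes was -0.01 in both comparisons. The 2 comparisons share the untreated array. All 12 members called with VPA were among the 29 called with GEM, which is 100% of the VPA list and 41.4% of the GEM list. Another 17 were called with GEM alone, though 4 VPA ratios and 5 GEM ratios lay within 0.05 of the limit of -1. Centring on the ribosomal protein genes, whose own medians were below 0 with either drug, left 2 VPA calls and 18 GEM calls. Quantile normalization of the columns again left 6 VPA calls, without CCNB2, MELK, BUB1B, TTK, SGO1 and CENPF, and 21 GEM calls, without PLK1, BUB1, NDC80, ZWINT, ESPL1, HMMR, PRC1 and TOP2A. The shares of all genes called under these other scalings were not counted.

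The cyclins and CDK1 regulators open the mitotic programme. Of these 8 genes, 2 were called lower with VPA and 4 with GEM, with group medians of -0.64 and -1.04. CCNB1, cyclin B1, which activates CDK1, was at 10.40 with VPA, 10.27 with GEM and 11.28 with both drugs, against 11.62 in untreated cells. The single-drug arrays lay apart from the other 2, at log2 ratios of -1.23 and -1.36 over untreated. CCNB2, cyclin B2, stood at 11.24 with VPA, 10.80 with GEM and 12.04 with both drugs, against 12.27 in untreated cells. Its ratios over untreated were -1.02 for VPA and -1.47 for GEM. The VPA value was past the 2-fold limit as deposited and became -0.92 after quantile normalization again. CCNA2, cyclin A2 of S phase and G2, was at 11.59 with VPA, 11.40 with GEM and 12.42 with both drugs, against 12.58 in untreated cells. Its VPA ratio of -0.99 was just short of the limit, and its GEM ratio of -1.18 passed it.

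CDK1 itself was at 11.33 with VPA, 11.02 with GEM and 11.92 with both drugs, against 11.92 in untreated cells, ratios of -0.58 with VPA and -0.89 with GEM that stayed within 2-fold. CDC25C, a phosphatase that activates CDK1, separated the drugs more than its relative CDC25B. It was at 8.89 with VPA, 8.25 with GEM and 9.38 with both drugs, against 9.49 in untreated cells, so that GEM was 1.56-fold below VPA. CDC25B was at -0.60 with VPA and -0.50 with GEM. CCNF, the F-box protein of an SCF ubiquitin ligase, was at -0.57 and -0.81. CKS2, a small CDK-binding protein, ran the other way round, with the lower value on the VPA array (-0.68) and the higher on the GEM array (-0.30).

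All 7 mitotic kinases outside the checkpoint were lower with either drug, and 3 were called with VPA and 5 with GEM. PLK4, the kinase that licenses centriole duplication, was at 9.62 with VPA, 9.54 with GEM and 11.03 with both drugs, against 11.24 in untreated cells. Its 3.06-fold lower level with VPA was the only difference of 3-fold or more among the members on that array, and with GEM it was 3.23-fold lower. PBK, a mitotic protein kinase, was at 10.43 with VPA, 9.98 with GEM and 11.69 with both drugs, against 11.64 in untreated cells. The levels with both drugs and with none differed by 0.05, while GEM alone lay 3.16-fold below untreated. MELK, another kinase that is high in dividing cells, was at 10.29 with VPA, 9.96 with GEM and 11.43 with both drugs, against 11.29 in untreated cells. Its VPA ratio of -1.01 was at the limit and became -0.90 after quantile normalization again.

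PLK1, the polo-like kinase of mitotic entry and spindle assembly, was at 12.20 with VPA, 12.00 with GEM and 12.96 with both drugs, against 13.04 in untreated cells. It was called with GEM (-1.03) but not with VPA (-0.84), and its GEM call was lost after quantile normalization again (-0.99). NEK2, which splits the centrosomes, was likewise called with GEM (-1.15) and not with VPA (-0.78). Neither Aurora kinase passed the limit. AURKA, the spindle pole kinase, had log2 ratios over untreated of -0.76 for VPA and -0.80 for GEM. AURKB, the kinase of the chromosomal passenger complex, had ratios of -0.76 and -0.93.

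Checkpoint genes had the lowest group median with either drug, -1.06 with VPA and -1.41 with GEM over 5 genes. MAD2L1, which encodes the MAD2 protein that sequesters CDC20, was at 10.29 with VPA, 10.19 with GEM and 11.41 with both drugs, against 11.70 in untreated cells. It was 2.65-fold lower with VPA and 2.85-fold lower with GEM. BUB1B, which encodes BUBR1, an inhibitor of the APC/C, was at 10.57 with VPA, 10.25 with GEM and 11.65 with both drugs, against 11.67 in untreated cells. The kinase TTK (MPS1), which starts checkpoint signalling, was at 9.92 with VPA, 9.58 with GEM and 11.11 with both drugs, against 10.99 in untreated cells. As deposited, both genes were more than 1 higher with both drugs and with none than with either drug alone. After quantile normalization again, the VPA ratios over untreated were -0.98 for BUB1B and -0.97 for TTK, and BUB1B stood at 0.99 for GEM_VPA over VPA, all short of the limit. With ribosomal centring the VPA ratios were -0.82 and -0.79.

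BUB1, the kinase that marks the inner centromere, was called with GEM (-1.02, and -0.92 after quantile normalization again) and stood at -0.70 with VPA. BUB3, the partner that brings BUB1 and BUBR1 to the kinetochore, had the smallest departure from additivity of all members, at 0.80. Its levels were 11.72 with VPA, 11.64 with GEM and 12.03 with both drugs, against 12.13 in untreated cells, so no array differed from another by 2-fold. The checkpoint group therefore spanned log2 ratios of -1.40 to -0.41 with VPA and -1.51 to -0.49 with GEM.

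The chromosomal passenger complex corrects faulty attachments and guides cytokinesis. Its scaffold INCENP had ratios of -0.53 for VPA and -0.58 for GEM, and CDCA8, borealin, ones of -0.75 and -0.94. BIRC5, survivin, was the only member with 2 rows, and they differed. One row was at 10.10 with VPA, 9.98 with GEM and 11.06 with both drugs, against 11.01 in untreated cells. The other was at 7.19 with VPA, 7.32 with GEM and 7.76 with both drugs, against 7.80 in untreated cells. The mean of the rows gave a GEM ratio of -0.75, and the brighter row alone -1.02, past the limit. SGO1, shugoshin, which protects cohesin at the centromere, was at 9.99 with VPA, 9.50 with GEM and 11.09 with both drugs, against 10.99 in untreated cells. Its VPA ratio of -1.001 sat on the limit, and GEM was 2.81-fold below untreated.

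Of 13 centromere and kinetochore genes, 3 were called lower with VPA and 8 with GEM, and the group medians were -0.76 and -1.10. The inner proteins CENPH, CENPI, CENPK, CENPM and CENPN belong to the constitutive centromere network that carries the kinetochore. CENPH was at 7.63 with VPA, 7.16 with GEM and 8.76 with both drugs, against 8.88 in untreated cells. It had the largest GEM difference among the members, 3.30-fold, and was the only one below the array median with either single drug, where values are compressed, so this fold may be understated. CENPK was at -0.90 with VPA and -1.26 with GEM. CENPM (-0.62 and -0.72) and CENPN (-0.75 and -0.75) stayed within 2-fold.

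CENPI showed the widest gap between the drugs. Its levels were 10.09 with VPA, 9.30 with GEM and 10.55 with both drugs, against 10.24 in untreated cells, so that VPA was close to untreated (-0.15) and GEM was 1.73-fold below VPA. CENPE, the kinesin motor that carries chromosomes to the metaphase plate, had ratios of -0.24 on the VPA array and -0.77 on the GEM array. CENPF, a large kinetochore protein of G2 and mitosis, was at 10.31 with VPA, 10.11 with GEM and 11.44 with both drugs, against 11.39 in untreated cells. It was called with both drugs, at -1.08 and -1.28, the VPA value becoming -0.96 after quantile normalization again.

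The NDC80 complex is the microtubule hook of the kinetochore and has 4 subunits. NUF2 was at 9.55 with VPA, 9.02 with GEM and 10.74 with both drugs, against 10.63 in untreated cells. Its ratios over untreated were -1.08 with VPA and -1.61 with GEM, the lowest of the 4 subunits in both. SPC25 followed with GEM at -1.37, then NDC80 at -1.07 and SPC24 at -0.86, and with VPA these 3 were at -0.80, -0.79 and -0.44. SKA1, of the complex that follows microtubule ends, was at 9.84 with VPA, 9.15 with GEM and 10.73 with both drugs, against 10.60 in untreated cells, with GEM 1.62-fold below VPA. ZWINT, which links the checkpoint proteins to the kinetochore, was at -0.66 and -1.10.

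Of the genes of anaphase onset, 0 of 4 were called with VPA and 1 of 4 with GEM. CDC20, the APC/C activator that the checkpoint holds, was at 11.95 with VPA, 11.82 with GEM and 12.71 with both drugs, against 12.76 in untreated cells. UBE2C, the ubiquitin-conjugating enzyme of the APC/C, was at -0.50 with VPA and -0.56 with GEM. PTTG1, securin, was at -0.45 and -0.94. ESPL1, separase, which cuts cohesin, was called with GEM at -1.002, on the limit, and was -0.95 after quantile normalization again.

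Among 8 spindle and cytokinesis genes, 0 were called with VPA and 4 with GEM. ASPM, a spindle pole protein, was at 9.14 with VPA, 8.49 with GEM and 9.99 with both drugs, against 9.83 in untreated cells. DLGAP5, which stabilises spindle microtubules, was at -0.85 with VPA and -1.27 with GEM. HMMR (-0.70 and -1.07) and PRC1, which bundles the central spindle (-0.74 and -1.02), passed the limit with GEM as deposited and stood at -0.97 and -0.92 after quantile normalization again. TPX2, the activator of AURKA (-0.51 and -0.72), NUSAP1 (-0.49 and -0.73), ANLN, anillin (-0.58 and -0.75), and ECT2, the RhoA exchange factor of the cleavage furrow (-0.73 and -0.88), stayed within 2-fold of untreated.

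TOP2A, the topoisomerase that untangles sister chromatids, was at 10.95 with VPA, 10.67 with GEM and 11.77 with both drugs, against 11.69 in untreated cells. FOXM1, a transcription factor of the G2 and mitosis genes, was at 10.55 with VPA, 10.25 with GEM and 11.27 with both drugs, against 11.40 in untreated cells. It was called with GEM (-1.15) and stood at -0.86 with VPA. MYBL2, B-MYB, which works with MuvB, was at 11.10 with VPA, 10.66 with GEM and 11.46 with both drugs, against 11.47 in untreated cells, ratios of -0.37 and -0.81. Both regulators were lower on the same arrays as the other members.

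The VPA and GEM arrays were next set against each other. On GEM over VPA, 48 of 52 members were below 0, against 47.9% of all genes, and the members' median was -0.28, against 0.01 for all genes. No member passed the 2-fold limit in either direction, and of 11477 genes at level 0.27% were called lower and 0.0349% higher. At a 1.5-fold limit 4 members were lower with GEM: CENPI at -0.79, SKA1 at -0.70, ASPM at -0.65 and CDC25C at -0.64. The share of all genes past that limit was not counted. CKS2, at 0.38, was the only member above 0.1. Kinetochore genes had the lowest group median in this comparison (-0.44 over 13 genes), and anaphase genes one of -0.10 over 4.

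With both drugs together, 0 of 52 members differed 2-fold from untreated cells, and of 11489 genes at level 0.0261% were called lower and 0.122% higher. Of the members 32 were below 0, against 57.5% of all genes. The median was -0.04, against -0.03 for all genes. Of the members, 44 lay within 0.2 of untreated, a share not counted over all genes. The quartiles were -0.12 and 0.06 over the members and -0.12 and 0.08 over all genes. Nearness to untreated was thus not particular to the members. The lowest were CCNB1 at -0.35 and MAD2L1 at -0.29, and the highest were CENPI at 0.31 and CENPE at 0.23. For scale, the robust SD of all genes between these 2 arrays was 0.147.

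Set against GEM alone, the combination was higher for all 52 members, against 47.2% of all genes. Of the members 26 were called higher and 0 lower, with a median of 0.99, against 3.6% of 11638 genes at level called higher and 1.78% lower. The largest values were NUF2 at 1.71, PBK at 1.71, CENPH at 1.60 and SGO1 at 1.59. Set against VPA alone, all 52 were again higher, against 48.2% of all genes. Of these 10 were called higher and 0 lower, with a median of 0.76, against 1.48% of 11600 genes at level called higher and 1.68% lower. PLK4, at 1.41, led that comparison, and PBK (1.26), TTK (1.18) and NUF2 (1.18) came next. For GEM_VPA over GEM the number of calls depends on values near the limit, with CCNA2 at 1.02 and CCNB1 at 1.01 just inside and ESPL1 at 0.98 just outside.

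**Figure D3:**
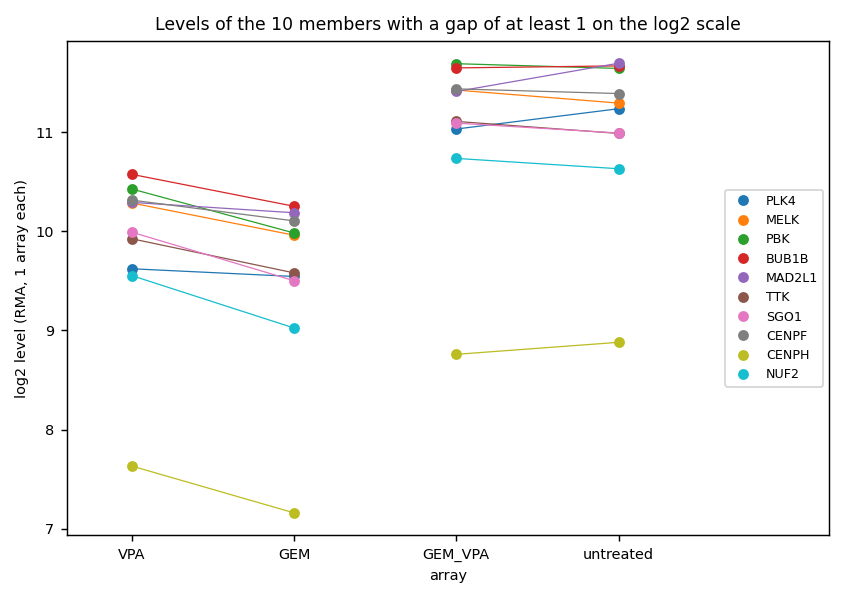
Log2 level (vertical axis) on each array for the 10 members whose VPA and GEM levels were both at least 2-fold below the GEM_VPA and untreated levels. Each colour is a gene, and lines join the VPA and GEM points and the GEM_VPA and untreated points. CENPH lies lowest, at 7.63 and 7.16 with a single drug against 8.76 with both and 8.88 untreated.

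The response to a drug can be read from 2 pairs of arrays that have none in common, those lacking the second drug and those holding it. As deposited, all 52 members were below 0 for VPA without GEM and above 0 for VPA with GEM, and likewise for GEM without and with VPA. The same pair of signs was found in 33.8% of all 18377 genes for VPA and in 37.9% for GEM. For the members these signs restate the arrangement already given, with both single-drug arrays below both others, and are not a separate result. The medians were -0.75 and 0.99 for VPA, and -1.02 and 0.76 for GEM. The departure from additivity (GEM_VPA minus GEM minus VPA plus untreated) had a median of 1.71 over the members, and reached 1 in 49 of 52, against 13.0% of 11808 genes at level. It was largest for PLK4 (3.10), PBK (2.92) and CENPH (2.85), and smallest for BUB3 (0.80), CDC25B (0.93) and UBE2C (0.94).

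**Figure D4:**
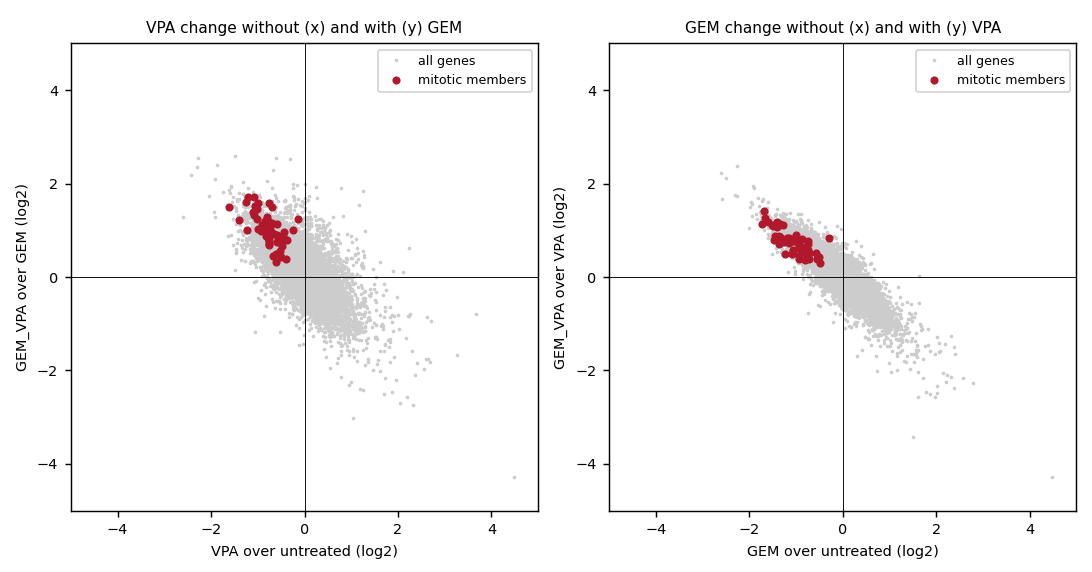
Change with a drug in the absence of the other drug (horizontal axis, log2 ratio) against the change in its presence (vertical axis, log2 ratio), VPA left and GEM right, for all 18377 genes (grey) and the 52 members (red). Every member lies in the upper left field, with medians of -0.75 and 0.99 for VPA and of -1.02 and 0.76 for GEM.

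For all 11808 genes at level, limma fitted a model in which the effects of VPA and GEM add up, leaving 1 residual degree of freedom. It called 0 genes for VPA and 0 for GEM after Benjamini-Hochberg adjustment (0.0% of genes, and 22 and 0 genes at an unadjusted p under 0.05). Among the 52 members none reached an unadjusted p under 0.05, and their median average effects were 0.11 for VPA and -0.15 for GEM. Their median residual SD was 0.854, against 0.233 for all genes, because that residual holds the departure from additivity. Changes of opposite sign without and with the other drug also cancel in the average effect. The fit could therefore hardly call a member, and its outcome says nothing about the single-drug differences.

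The rest of the mitotic machinery was read from lists of related genes. Of 23 further centromere and kinetochore genes, 4 were called lower with VPA and 12 with GEM (medians -0.76 and -1.05), led by MIS18A, which helps load CENPA (-1.42 with VPA and -1.44 with GEM). Among 14 cohesin genes, 3 and 5 were called lower (medians -0.66 and -0.68), including the ring subunit SMC3 (-1.24 and -1.37) and STAG1 (-1.43 and -1.28). Of 20 spindle pole and microtubule nucleation genes, 1 and 5 were called lower (medians -0.54 and -0.74), with TUBGCP3 of the gamma-tubulin complex at -1.33 and -1.45. The 15 APC/C subunits and inhibitors, whose core is made throughout the cycle, had medians of -0.31 and -0.32 with 1 call each, CDC26 at -1.05 with VPA and the inhibitor FBXO5 at -1.04 with GEM.

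In the list of 21 other checkpoint, entry and exit regulators, 1 gene was called lower with VPA and 3 with GEM, and 1 was called higher with each. BORA, the cofactor with which AURKA activates PLK1, was at -1.19 and -1.37. PLK3, a stress-induced polo-like kinase, was the one called higher, at 1.29 and 1.22. Of 11 DREAM and MuvB genes, 2 were called lower with each drug, LIN9 of MuvB (-1.06 and -1.26) and RBL1, the pocket protein p107 (-1.10 and -1.60), with list medians of -0.47 and -0.39.

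Replication and condensin genes showed differences of the same direction. Of 45 DNA replication genes, 22 were called lower with VPA and 26 with GEM (medians -1.02 and -1.27). Of 8 condensin genes, 3 and 5 were called (medians -0.87 and -1.13). The 26 kinesins, a family that also holds transport motors of resting cells, had medians of -0.32 and -0.37, with 4 and 10 called. Cytosolic ribosomal protein genes, with 0 of 42 called, had medians of -0.26 and -0.16. The medians of the mitotic members thus lay above those of condensin and the replication list. They lay below those of the kinesin and ribosomal lists, and these differences between lists were not tested. The kinesin list is mixed, with ratios from -1.45 to 0.51 with VPA and from -1.65 to 0.28 with GEM. KIF15 was at -1.45 and -1.65 and KIF11 at -1.21 and -1.55, and no separate median was taken for the mitotic motors. With both drugs, 0 genes of any of these lists differed 2-fold from untreated cells. The departure from additivity had medians of 2.22 over the replication genes, 1.98 over condensin and 1.75 over the 23 further kinetochore genes. It reached 1 in 37 of 45, 8 of 8 and 20 of 23. Other lists had lower medians, from 0.31 (ribosomal) to 1.33 (spindle pole). Both single-drug arrays lay below both others for all 45 replication and all 8 condensin genes and for 22 of 23 further kinetochore genes. The same held for 32 of 42 ribosomal protein genes, against 30.6% of all genes. The pattern was thus not particular to the mitotic members.

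**Figure D5:**
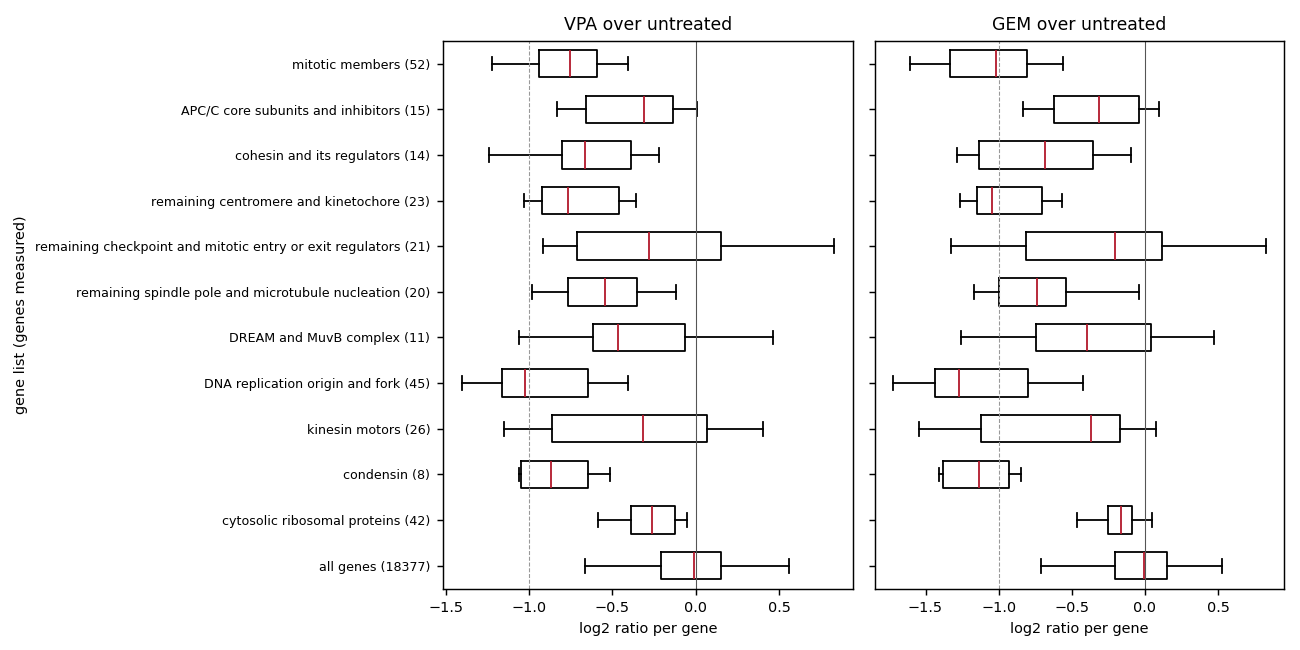
Log2 ratio per gene (horizontal axis) over the untreated array, VPA left and GEM right, for the mitotic members and related lists, with the number of measured genes in brackets. Boxes span the quartiles, whiskers the 5th to 95th percentile, red lines are medians and the dashed line is a 2-fold decrease. The member median is at -0.75 with VPA and -1.02 with GEM, and that of all genes at -0.01 in both.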

How the data were processed

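RNA from 4 HuCCT1 samples was measured on Affymetrix Human Gene 1.0 ST arrays. The authors deposited log2 intensities, which the labels' series text says came from GeneSpring GX 11.5. RMA is named per the submitters' processing notes. RMA equalises arrays and compresses low values. Levels ran from 4.38 to 14.67 with array medians of 7.87 to 7.92, scanner files were not used here, and the number of arrays limits the precision. No source used here gives the genome build of the rows.

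Rows were named from the platform annotation: 19310 rows have 1 symbol, 1752 several and 7807 none. Genes took the mean of their rows, and the RefSeq gene table gave the same symbol for all 53 member rows. The members and lists were chosen with earlier results of these data known. Any member may be named. Of other lists, up to 4 genes with the largest ratio past the 2-fold rule with VPA or GEM may be named, and marker genes come from fixed lists. The limma fit was checked on simulated data: for the average VPA effect on 11808 genes, it found 100 of 100 genes given a log2 effect of 1, likewise 100 of 100 given 2, and made 13 calls among 11608 genes left as they were. The simulated effects were additive, with noise smaller than the median residual SD of 0.233 over all genes on the real arrays. The check therefore shows that the fit runs, and not what it can find where drug effects depart from additivity. Alternatives covered normalization, the fold limit, the level filter, the choice of row and the limma settings. Software was Python 3.11.15 with numpy 2.4.6, pandas 2.3.3 and matplotlib 3.10.9, and R 4.3.3 with limma 3.58.1.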

Additional observations from a re-analysis of the deposited data

Results flagged for a closer look

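The change with each drug had opposite directions without and with the other drug. This restates that both single-drug arrays lay below both other arrays in all 52 members. Over the 52 members the median VPA change was -0.75 without GEM and 0.99 with GEM, and the median GEM change was -1.02 without VPA and 0.76 with VPA. With 1 array per condition this difference was not tested. As deposited, in 10 members both changes were at least 2-fold lower without the other drug and at least 2-fold higher with it, against 0.855% of genes at level. These are the same 10 members whose single-drug levels were both at least 2-fold below the other levels. Their departures from additivity on the log2 scale were 3.10 for PLK4, 2.92 for PBK, 2.85 for CENPH, 2.79 for NUF2, 2.63 for MAD2L1, 2.59 for TTK, 2.59 for SGO1, 2.49 for BUB1B, 2.47 for MELK and 2.41 for CENPF. After quantile normalization again, MELK, BUB1B, TTK, SGO1 and CENPF were no longer 2-fold lower with VPA. Ribosomal centring left 2 VPA calls among the members, and MAD2L1 then stood at 0.94 for GEM_VPA over VPA, short of the limit. A change below 0 without and above 0 with the other drug was found in 33.8% of all genes for VPA and 37.9% for GEM. Whether array labels were exchanged cannot be told from these 4 arrays, and the sign of each of these values rests on the labels.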

How the results depend on the processing

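No paired analysis was possible because each group has 1 array. All 52 members kept both single-drug arrays below the other arrays after quantile normalization again, median centring and the choice of 1 row per gene, and 50 did with ribosomal centring, where CENPI (0.13) and CENPE (0.04) stood above untreated with VPA. No called member changed sign under the alternatives tried. The number of members called lower with VPA (12) was 6 after quantile normalization again, 2 with arrays centred on the ribosomal protein mean, 39 at a 1.5-fold limit and 1 at 3-fold. The number called lower with GEM (29) was 18 with ribosomal centring, 47 at 1.5-fold and 4 at 3-fold. The number called higher for GEM_VPA over GEM (26) was 46 at 1.5-fold and 5 at 3-fold, and for GEM_VPA over VPA (10) it was 4 with ribosomal centring, 33 at 1.5-fold and 0 at 3-fold. GEM over VPA had 4 members lower at 1.5-fold, against 0 at 2-fold. The shares of all genes called under these alternatives were not counted, so these counts show only how the calls depend on the setting. The VPA median became -0.65 after quantile normalization again and -0.48 with ribosomal centring, the GEM median -0.83, the GEM_VPA over VPA median 0.58 and the median departure 1.34 with ribosomal centring. Ribosomal centring put the median of all genes at 0.27 for VPA and 0.19 for GEM over untreated, and at -0.11 and -0.19 for GEM_VPA over GEM and over VPA. The additive limma fit called 0 members under each of its settings. Opposite changes without and with the other drug all but fix that outcome, so it is no check of the calls. Without replicate arrays, the spread between samples of a condition is not known.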
